A study of Mus musculus with 7 samples.

Results

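Regions of open chromatin inside genes that DNase I alone detected were examined in mouse liver. Hotspots of 3 nucleases on the 19 autosomes were merged into regions wherever they overlapped by 1 bp or more. The members were chosen by the hotspot lists themselves: a DNase I hotspot was present, a Benzonase or Cyanase hotspot was absent, the region lay more than 1 kb from every protein-coding transcriptional start site (TSS), and it overlapped the body of a protein-coding transcript. This selection kept 12225 of 90879 autosomal regions. They made up 48.1% of the 25405 regions with DNase I hotspots only (95% Wilson interval 47.5 to 48.7%), and 32.5% of the 37672 intragenic regions of any nuclease (32.0 to 32.9%). Each of the 12225 members consisted of 1 DNase I hotspot. Presence and absence of the hotspots are what the choice used, and are described here without a test.

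All samples were livers of male C57BL/6 mice aged 8 weeks with no transgene or drug. DNase I was applied to nuclei purified from fresh liver, whereas Benzonase and Cyanase, at 0.25, 1 and 4 U, were applied to pulverized frozen liver. The labels list 1 DNase I sample, 3 Benzonase samples and 3 Cyanase samples, and the header of the DNase I list names 2 pooled libraries. The deposited lists hold 69897 DNase I, 59040 Benzonase and 55904 Cyanase hotspots on the autosomes, each called from pooled tags. There is therefore no spread between replicates. Nuclease and tissue preparation cannot be told apart in this design, and neither can the cell types of the tissue. Intervals on shares cover counting error only, regions are not replicates of a condition, and the number of the 19 autosomes that show a difference is given as a description of its evenness.

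DNase I cuts DNA where nucleosomes have been displaced, and a hotspot is a stretch in which such cuts cluster above the background. Inside genes, and away from their start sites, many such stretches are enhancers, short elements bound by transcription factors that raise transcription of the gene around them or of a neighbour. In hepatocytes, the parenchymal cells of the liver, enhancers are typically bound by FOXA, HNF4, HNF1, Onecut (HNF6), C/EBP and NFI proteins, which recognise short and mostly AT-rich words.

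To show what these elements look like, the central 200 bases of 8 members that lay wholly in introns are printed on the plus strand of mm9. From each of 6 lists of liver and clock genes the member with the widest DNase I hotspot was taken among those with a FOXA, C/EBP, HNF4 or NFI word in that stretch, and the members of lowest and highest GC content were added. Capitals mark letter matches, on either strand, to FOXA (TGTTTAC or the variant TGTTTGC), C/EBP (TTGCNNAA), HNF4 (CAAAGTCCA), HNF1 (GTTAATNAT), Onecut (ATTGATT) and the NFI core (TTGGCA). A single stretch can match both C/EBP and the NFI core.
Igf1 intron, chr10:87328939-87329138, plus strand: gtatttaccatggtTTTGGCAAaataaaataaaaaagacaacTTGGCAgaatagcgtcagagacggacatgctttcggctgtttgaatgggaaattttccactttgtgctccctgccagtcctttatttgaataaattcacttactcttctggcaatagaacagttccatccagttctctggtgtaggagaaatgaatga
Slc25a13 intron, chr6:6155759-6155958, plus strand: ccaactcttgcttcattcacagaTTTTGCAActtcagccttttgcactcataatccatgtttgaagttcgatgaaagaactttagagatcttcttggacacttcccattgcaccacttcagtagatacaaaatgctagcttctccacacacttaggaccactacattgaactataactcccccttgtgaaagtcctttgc
Cyp7b1 intron, chr3:18066100-18066299, plus strand: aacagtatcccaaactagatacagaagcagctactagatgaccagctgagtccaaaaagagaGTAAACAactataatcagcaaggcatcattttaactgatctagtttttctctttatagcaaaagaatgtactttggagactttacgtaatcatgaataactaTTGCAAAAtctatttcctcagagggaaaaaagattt
Pcx intron, chr19:4546060-4546259, plus strand: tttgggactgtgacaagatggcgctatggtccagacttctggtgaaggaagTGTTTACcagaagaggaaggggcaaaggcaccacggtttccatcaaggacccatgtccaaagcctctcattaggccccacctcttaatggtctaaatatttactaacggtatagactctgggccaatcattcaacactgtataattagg
Esr1 intron, chr10:5564224-5564423, plus strand: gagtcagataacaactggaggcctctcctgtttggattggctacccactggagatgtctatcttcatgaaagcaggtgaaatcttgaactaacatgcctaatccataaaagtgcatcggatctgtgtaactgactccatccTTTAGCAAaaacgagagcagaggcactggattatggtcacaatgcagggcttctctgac
Nr1d2 intron, chr14:19069351-19069550, plus strand: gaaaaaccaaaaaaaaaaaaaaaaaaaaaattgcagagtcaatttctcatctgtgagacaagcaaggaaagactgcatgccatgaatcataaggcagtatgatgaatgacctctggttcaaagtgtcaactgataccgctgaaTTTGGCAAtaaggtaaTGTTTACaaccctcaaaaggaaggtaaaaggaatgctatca
Ncam2 intron, chr16:81387347-81387546, plus strand: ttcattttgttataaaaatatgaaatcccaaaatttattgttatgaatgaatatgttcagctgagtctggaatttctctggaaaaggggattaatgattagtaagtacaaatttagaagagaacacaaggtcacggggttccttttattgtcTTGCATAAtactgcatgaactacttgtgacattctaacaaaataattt
Cgn intron, chr3:94561984-94562183, plus strand: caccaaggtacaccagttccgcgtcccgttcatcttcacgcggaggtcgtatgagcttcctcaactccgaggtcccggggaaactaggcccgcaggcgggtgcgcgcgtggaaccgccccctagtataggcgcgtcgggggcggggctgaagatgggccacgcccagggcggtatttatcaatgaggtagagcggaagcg

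The member in Igf1, which encodes the hepatic growth factor insulin-like growth factor 1, was 1375 bp wide and carried 1 C/EBP and 2 NFI core words in the printed stretch. In Cyp7b1, an oxysterol hydroxylase of bile acid synthesis, 1 FOXA and 1 C/EBP word stood in a member with 35.1% GC, 76747 bp from the nearest TSS. The member in Nr1d2, which encodes the circadian repressor REV-ERBβ, lay 1845 bp from a TSS and held 1 word each of FOXA, C/EBP and the NFI core. The member of lowest GC content (25.5%) lay in Ncam2, a neural cell adhesion gene, and that of highest GC content (63.4%) lay in Cgn, which encodes the tight junction protein cingulin. The Cgn stretch held none of the marked words.

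Members were narrow. Their median width was 555 bp (quartiles 462 and 633 bp, range 251 to 2946 bp), compared with 807 bp (698 and 1046 bp) for the 13928 intragenic regions that all 3 nucleases detected and 454 bp (332 and 585 bp) for the 9018 detected by Benzonase or Cyanase without DNase I. Merging hotspots of several lists widens a region by construction, so these widths are given as a description. Members covered 6.77 Mb in all. The widest was a 2946 bp region at chr8:107578668-107581613 in Ces3a, a carboxylesterase gene, which reached into an exon and lay 6169 bp from the nearest TSS. The next were 2666 bp in A930039A15Rik and Gm11074, 2576 bp in Serpina1e, a gene of the α1-antitrypsin family, 2429 bp in Car3, a carbonic anhydrase, and 2225 bp in Gli2, a transcription factor of Hedgehog signalling.

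At the edges of the rule, 67 members lay up to 100 bp beyond the limit of 1 kb from a TSS, and 70 regions of DNase I alone in gene bodies lay less than 100 bp short of it and were not members. The gene for tyrosine aminotransferase, Tat, an enzyme of amino acid breakdown in hepatocytes, held 0 members. Its 794 bp region of DNase I alone, at chr8:112515038-112515831, lay 632 bp from a TSS, inside the limit of 1 kb. Some members stood close to hotspots of the other nucleases without overlapping them: 7 touched such a region, 411 lay within 150 bp of one and 2071 within 1 kb, whereas 6767 had none within 5 kb.

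Members were mostly intronic, as is the gene space itself. Of all members, 88.5% lay wholly in introns, 11.5% overlapped an exon (10.96 to 12.1%), 8.15% overlapped coding sequence, 4.20% a 3' UTR and 0.712% a 5' UTR. Of the gene space more than 1 kb from a TSS, introns occupy 94.9%, first introns 30.6% and exons 5.87%. These are shares of bases, to be set beside the shares of midpoints below and not beside overlaps of whole regions. Regions of all 3 nucleases overlapped an exon more often (18.9%), a difference of -7.39 percentage points (Newcombe 95% interval -8.26 to -6.53) with the same sign on 19 of 19 autosomes. Since the widths of the classes differed, the midpoints were compared too, and 4.92% of members against 6.67% of these regions had their midpoint in an exon (difference -1.75 percentage points, -2.31 to -1.18, same sign on 15 of 19 autosomes). Benzonase-Cyanase regions lay on exons most often, with 25.9% overlapping one and 15.8% having their midpoint there. A first intron was overlapped by 40.9% of members (40.1 to 41.8%) and 41.8% of the regions of all 3 nucleases. This difference of -0.904 percentage points (-2.10 to 0.293) had the same sign on 12 of 19 autosomes, and its interval includes 0. Midpoints lay in a first intron for 40.43% of members and 40.39% of the regions of all 3 nucleases.

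Members were most dense near start sites and thinned out slowly with distance. Their density fell from 21.7 per Mb of gene body at 1 to 2 kb from a TSS to 15.9 at 5 to 10 kb, 13.8 at 20 to 50 kb and 8.08 beyond 100 kb. Regions of all 3 nucleases fell more steeply, from 28.1 to 6.15 per Mb over the same range. Accordingly there were 0.774 members for each region of all 3 nucleases at 1 to 2 kb, 1.09 at 50 to 100 kb and 1.31 beyond 100 kb. The median distance to a TSS was 20170 bp for members, against 15770 bp for regions of all 3 nucleases and 17751 bp for Benzonase-Cyanase regions. Along the gene, members leaned to the 5' side, with 12.3% at 10 to 20% of the gene's length and 8.60% at 90 to 100%. There, regions of all 3 nucleases held 12.1% and 9.82%, and Benzonase-Cyanase regions 9.66% and 14.5%. Between autosomes the density of members was even, from 12.1 per Mb on chromosome 7 to 14.8 on chromosome 11 (mean 13.7 ± 0.729, SD over 19 autosomes), whereas that of regions of all 3 nucleases ranged from 12.7 to 20.6 (15.7 ± 2.15).

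**Figure D1:**
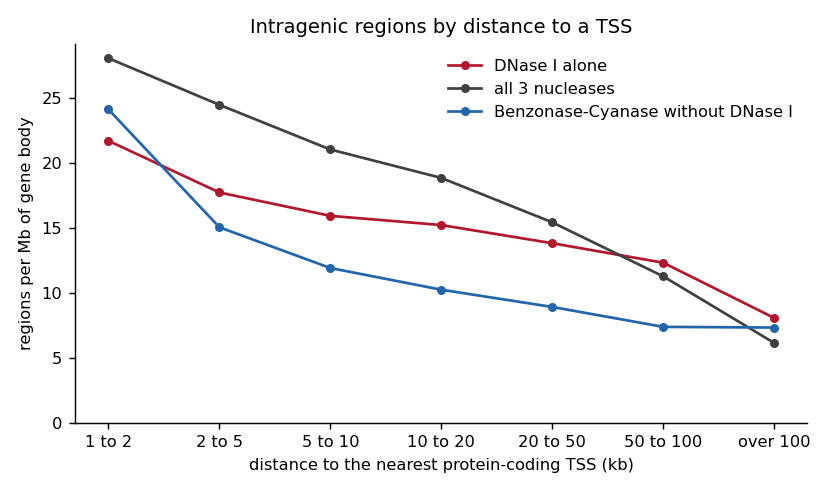
Density of intragenic regions, in regions per Mb of protein-coding gene body, against the distance in kb to the nearest protein-coding TSS, for members (DNase I alone), regions of all 3 nucleases and Benzonase-Cyanase regions without DNase I. Members went from 21.7 per Mb at 1 to 2 kb to 8.08 per Mb beyond 100 kb, and the curve of all 3 nucleases crossed below them beyond 50 kb.

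The members were spread over 5372 of 21416 protein-coding genes (25.1%, 24.5 to 25.7%). Of these host genes, 2718 held a single member, 607 held 5 or more and 86 held 10 or more. A region of all 3 nucleases was also present in 3017 host genes (56.2%, 54.8 to 57.5%). Over all protein-coding genes, 5379 of 21416 held one (25.1%, 24.5 to 25.7%), and the part of gene length in this difference was not tested. Members and no other intragenic region were held by 1556 host genes (29.0%, 27.8 to 30.2%).

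Genes with the most members were long. The models of the first 3 by number run across several other genes. Gm20388 held 71 members over 4435 kb with 73 other protein-coding genes inside its span. Fgfr2, a fibroblast growth factor receptor, held 43 over an annotated 3009 kb with 31 genes inside, and Arfip1 held 28 over 1391 kb with 6 genes inside. Pde4d, a cyclic AMP phosphodiesterase, held 23 members over 1299 kb. The receptor-type tyrosine phosphatase genes Ptprg and Ptprk held 18 and 17, the oxidoreductase gene Wwox held 18, and Akap13, an anchoring protein of protein kinase A, held 17 in only 299 kb. Grm8, a metabotropic glutamate receptor with no hotspot at a TSS in any list, held 17 members and 4 regions of all 3 nucleases. Erc2, a presynaptic scaffold gene, had 16 and is the first by name of 8 genes with that number. Members hosted only by models over 1 Mb numbered 414, and 11811 members remained without those 46 models.

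Per length, short genes with clusters of members led. Among genes with 5 or more members, Errfi1, a feedback inhibitor of the EGF receptor, was densest, with 6 members in 15.0 kb (40.1 per 100 kb) beside 2 regions of all 3 nucleases. Ypel5 held 5 members in 14.5 kb and no region of all 3 nucleases. Tm4sf1, a tetraspan membrane protein, held 5 in 16.3 kb, and its start sites carried Benzonase and Cyanase but no DNase I hotspots. 4933403F05Rik held 8, Ncoa5, a coactivator of nuclear receptors, held 6 in 34.5 kb, and the copper transporter gene Slc31a1 held 5 in 31.0 kb. Rnf11 and Ppp4r2 each held 5 and no region of all 3 nucleases, Gmeb2 held 5 and Naa25 held 6. All 10 had a hotspot of at least 1 nuclease at a TSS. These genes were taken from the top of the ranking, so their densities are the upper end of the distribution and not a typical value.

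Members had another region nearby less often than shared regions did, and about as often as Benzonase-Cyanase regions. Another region of any kind lay within 5 kb of 59.8% of members (58.9 to 60.6%) and of 74.9% of regions of all 3 nucleases. The difference was -15.1 percentage points (-16.2 to -14.0) with the same sign on 19 of 19 autosomes. For Benzonase-Cyanase regions the share was 58.6%. The members' difference from it, 1.21 percentage points (-0.126 to 2.55), has an interval that includes 0. A region of all 3 nucleases lay within 5 kb of 35.2% of members. Another region of DNase I alone lay that near to 30.0% of members, 26.3% of regions of all 3 nucleases and 14.6% of Benzonase-Cyanase regions. The excess of members over regions of all 3 nucleases, 3.66 percentage points (2.57 to 4.75), had the same sign on 17 of 19 autosomes, so regions of DNase I alone had each other as neighbours slightly more often.

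Most members lay in genes whose start site was open as well. A gene was counted as open when the base of at least 1 of its protein-coding TSSs lay in a hotspot. This measure was taken from the same 3 lists that the choice of members used, so it is not separate support. By it, 87.0% of members (86.4 to 87.6%), 90.4% of regions of all 3 nucleases and 78.3% of Benzonase-Cyanase regions lay in an open gene. The difference of -3.44 percentage points from regions of all 3 nucleases (-4.21 to -2.67) had the same sign on 19 of 19 autosomes. Of the 12787 genes with a TSS hotspot, 35.3% held a member (34.5 to 36.1%), against 9.99% of the 8629 genes without one (9.38 to 10.6%). Open genes took up 677.4 Mb of gene body more than 1 kb from a TSS, and genes with no TSS hotspot 236.8 Mb. Per Mb of it, open genes held 15.9 members and 18.96 regions of all 3 nucleases. Genes with no TSS hotspot held 6.99 and 6.00. Members thus outnumbered regions of all 3 nucleases in genes without a TSS hotspot (1.16 for each) but not in those with one (0.841 for each). Genes without a TSS hotspot were shorter (median 5.88 kb against 23.7 kb). Density and the number of members for each region of all 3 nucleases also varied with the distance from a TSS, and the part of gene length in these differences was not tested.

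The split extended to the kind of hotspot at the TSS. In 179 genes the only hotspots at TSSs were those of DNase I. These genes held 96 members and 45 regions of all 3 nucleases, or 2.13 members for each. The ratio was 0.807 in the 9995 genes whose TSSs carried hotspots of all 3 lists. It was 0.963 in the 2514 genes with Benzonase or Cyanase but no DNase I at TSSs. The grouping by TSS and the choice of members rest on the same kind of call in the same 3 lists. These ratios are therefore a description and not separate support. Among the 179 genes the most members were in March1, an E3 ubiquitin ligase of antigen-presenting cells, with 9. Pla2g4a, a cytosolic phospholipase A2, held 6, and the calpain gene Capn8 held 5. Scara5, a scavenger receptor, held 4. Msr1, the macrophage scavenger receptor, Emr4, a macrophage adhesion-type receptor, Lcp2, a signalling adaptor of blood cells, Samsn1, a haematopoietic adaptor, and Arhgef26 held 3 each. These 9 genes were singled out after their values were seen, and are named as the genes with 3 or more.

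Genes of the liver's resident macrophages, the Kupffer cells, showed this pattern as a list. Of 18 Kupffer cell genes found, 9 had TSS hotspots of DNase I alone (50%, 29.03 to 70.97%), 2 had hotspots of all 3 lists and 0 had Benzonase or Cyanase without DNase I. Over all protein-coding genes, 0.836% had TSS hotspots of DNase I alone. Within the bodies, 6 of the 18 genes (33.3%, 16.3 to 56.3%, against 25.1% of all protein-coding genes) held 8 members, against 2 regions of all 3 nucleases and 2 Benzonase-Cyanase regions. Mpeg1, which encodes the macrophage pore-forming protein perforin-2, held 2 members in 4.51 kb, and Timd4, a receptor for dying cells, held 2. Cd163, the haemoglobin scavenger receptor, and Cd5l, a secreted macrophage protein, held 1 each. Each of these 4 genes had 0 regions of all 3 nucleases and 0 Benzonase-Cyanase regions. The density of members in the list was 1.64 per 100 kb, against 1.305 over all genes, and rests on 8 members.

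Other cell types gave a different picture. Of the marker genes used to check the tissue, 6 of 6 hepatocyte markers (Alb, Apoa1, Ttr, Serpina1a, Cps1 and Hnf4a) had TSS hotspots of all 3 nucleases, whereas 5 of 5 Kupffer cell markers found had a DNase I hotspot at a TSS and 0 had all 3. The 5 Kupffer cell markers held 1 member and 2 regions of all 3 nucleases in their bodies. Sinusoidal endothelial markers had a TSS hotspot in 2 of 6 genes, with 0 from DNase I, and stellate cell markers in 5 of 6, with 1 from DNase I. Bile duct markers had one in 2 of 6 genes and neuron markers in 3 of 6. In each of these 2 sets, 1 gene had TSS hotspots of all 3 nucleases. In the longer list of 22 sinusoidal endothelial genes, 10 had TSS hotspots without DNase I and 0 had DNase I alone. That list held 34 members, 2.25 per 100 kb against 1.305 over all genes, and 62 regions of all 3 nucleases, or 0.548 members for each against 0.873 over all genes. Erg, an endothelial transcription factor, and Mrc1, the mannose receptor, held 5 members each, Tek, the angiopoietin receptor, held 4 and Plxnc1, a semaphorin receptor, held 3. Stellate cell and bile duct genes held 10 members, 0.900 per 100 kb and 0.769 for each region of all 3 nucleases, among them 4 in Reln, 2 in Hhip and 1 in Col3a1. In bulk tissue, fewer cells of a type and a weaker signal per cell cannot be told apart, and the part that cell mixture plays in the choice of members was not tested.

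Genes of hepatocyte function held members at 2.02 to 2.997 per 100 kb in each of 5 lists. Together, 310 gene models of the 5 hepatocyte lists held 342 members, counted once for each gene that hosted them, or 2.42 per 100 kb of gene body, against 1.305 over all protein-coding genes. In the same genes regions of all 3 nucleases stood at 5.58 per 100 kb against 1.495 over all genes, so there were 0.433 members for each region of all 3 nucleases in these lists and 0.873 over all genes. A member was present in 143 of the 310 models (46.1%, 40.7 to 51.7%) and absent from 167.

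Among secreted plasma protein genes, 29 of 71 models held 50 members. Cfi, a complement protease, Gc, the vitamin D-binding protein, and Masp1, a protease of the lectin pathway of complement, held 3 each. Cfi had 2 regions of all 3 nucleases, Gc had 4 and Masp1 had 9. Amino acid and nitrogen metabolism genes held 38 members in 21 of 53 genes, with 5 in Bckdhb, a subunit of the branched-chain keto acid dehydrogenase, 4 in Slc25a13, the mitochondrial aspartate-glutamate carrier, and 3 each in Cth, cystathionine γ-lyase, and Kynu, kynureninase. Kynu had 0 regions of all 3 nucleases.

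Drug and bile acid genes held 41 members in 23 of 55 genes. The transporter gene Abcg2 held 4 with 1 region of all 3 nucleases. Por, the reductase that supplies electrons to cytochrome P450 enzymes, held 4 with 5, and Cyp2c29 and Cyp7b1 held 3 each. Glucose and lipid genes held 81 members in 33 of 68 genes, led by Acaca, acetyl-CoA carboxylase, with 9 members and 6 regions of all 3 nucleases. The growth hormone receptor gene Ghr, the insulin receptor gene Insr and the hepatic lipase gene Lipc held 5 each, beside 10, 9 and 11 regions of all 3 nucleases.

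Liver transcription factor and nuclear receptor genes held 132 members in 37 of 63 genes, the largest number of the 5 lists. Nfib held 12, Rora 11, the thyroid hormone receptor gene Thrb 10 and the oestrogen receptor gene Esr1 9. Regions of all 3 nucleases exceeded members in Nfib (20), Rora (32) and Thrb (20) but not in Esr1 (8), whose TSS hotspots came from Benzonase and Cyanase without DNase I.

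Circadian clock genes had a member density of 3.03 per 100 kb, with 25 members in 10 of 21 genes and 34 regions of all 3 nucleases. Npas2, a partner of BMAL1, held 6 members and 1 region of all 3 nucleases. Bhlhe40, a repressor of the clock, held 4 members in 6.30 kb, 0 regions of all 3 nucleases and 0 Benzonase-Cyanase regions. Arntl, which encodes BMAL1, held 3 and the kinase gene Csnk1d held 2. A single collection of liver gives no time course, so these counts describe the tissue as collected.

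Long genes known for neuronal roles stood at the other end. They held 176 members, 0.537 per 100 kb and below the 1.305 of all genes, but only 44 regions of all 3 nucleases, 0.134 per 100 kb. There were thus 4.0 members for each region of all 3 nucleases, beside 136 Benzonase-Cyanase regions. Grm8 held 17 members, Ptprd, a receptor-type phosphatase, 12, and the potassium channel regulator gene Kcnip4 and the neurexin gene Nrxn3 held 11 each. Kcnip4 and Nrxn3 each had 1 region of all 3 nucleases. Without gene models over 1 Mb, 14 genes remained, with 74 members and 29 regions of all 3 nucleases (2.55 for each). Members of long neuronal genes had a mean GC content of 39.1%, against 42.7% for all members.

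**Figure D2:**
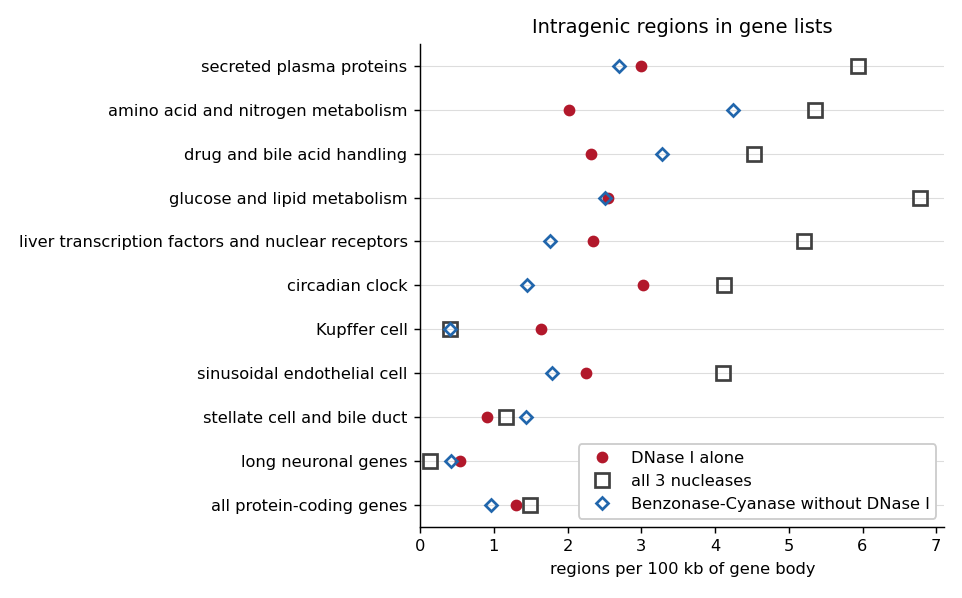
Regions per 100 kb of gene body in 10 gene lists and in all protein-coding genes, for members (DNase I alone), regions of all 3 nucleases and Benzonase-Cyanase regions without DNase I. Members ranged from 0.537 in long neuronal genes to 3.03 in circadian clock genes. In the Kupffer cell list the markers of the other 2 classes coincide at 0.409.

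Members were not richer in GC than the DNA around them. Their mean GC content was 42.7% (SD 5.19 over 12225 members). That of their own 5 kb flanks, with any other region inside them included, was 43.3%. The difference was -0.662 percentage points (SD 0.178 over 19 autosomes), and 56.0% of members (55.2 to 56.9%) lay below their flanks. Over the central 150 bp the difference from the same flanks was -0.248 percentage points (SD 0.389), with the same sign on 13 of 19 autosomes. Regions of all 3 nucleases were 1.87 percentage points above their flanks on average, and Benzonase-Cyanase regions 7.64 above. Within the members, those that overlapped an exon had a mean of 43.4% and those wholly in introns 42.6%. Members within 5 kb of a region of all 3 nucleases had a mean GC content of 43.4% and lay 1.41 percentage points below their flanks. Those farther away had 42.3% and lay 0.258 below. The flanks of the former take in bases of that region, and its part in these differences was not tested. The narrowest quartile of members averaged 43.5% GC and the widest 41.8%.

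Words of the liver transcription factors were nevertheless concentrated in members. In a 300 bp window at the midpoint, 49.4% of members (48.5 to 50.3%) held at least 1 of 6 words (both FOXA words, C/EBP, HNF4, HNF1 and Onecut). This compared with 25.4% of 21399 windows of the same length in the members' own flanks, centred 2 kb outside each edge and free of any region. At least 2 different words were present in 12.1% of members and 2.93% of flank windows, and at least 3 in 1.33% and 0.173%. Regions of all 3 nucleases held at least 1 in 41.98%, against 23.04% of their own flank windows, whereas Benzonase-Cyanase regions did so in 18.2%, below their own flanks at 23.0%.

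Among the words of 7 letters ranked below, the Onecut word had the largest ratio of members to flanks. In percentage points, the excess was larger for C/EBP (11.65), the NFI core (13.24) and the nuclear receptor hexamer (13.66). ATTGATT, as in the binding site of HNF6, was present in 13.04% of members (12.5 to 13.7%) and in 4.06% of their flank windows, an excess of 8.98 percentage points (8.34 to 9.64) on 19 of 19 autosomes. It was present in 6.94% of regions of all 3 nucleases, in 1.57% of Benzonase-Cyanase regions and in 7.76% of all intragenic regions. Read backwards, the same letters were found in 4.597% of members and 4.33% of flank windows. All 5188 words of 7 letters present in at least 2% of members were ranked by the ratio of their share in members to that in flanks. This ranking used the same windows, and words entered it by their share in members, so it is a description and not separate support. ATTGATT came first with a ratio of 3.21. GATCAAT (2.81) and TATTGAT (2.77), which share letters with it, came next. They were followed by AAGGTCA at 2.50, the nuclear receptor hexamer with an A in front, and later by words that contain the NFI core TTGGCA, such as CTTGGCA at 2.28. TGTTTAC, the FOXA word, was number 15 with 2.13. Ranked by the ratio to regions of all 3 nucleases instead, AAAATTT came first with 2.485 and AATAATA was number 25 with 2.16. ATTGATT had 1.88 by that ratio. AAAATTT was less frequent in members (6.89%) than in their flanks (8.77%).

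FOXA, C/EBP, HNF1 and HNF4 words were raised over the flanks as well. TGTTTAC was found in 9.64% of members (9.13 to 10.2%) and 4.53% of flank windows, and TGTTTGC in 11.7% and 6.46%. C/EBP words were found in 23.9% and 12.2%, HNF1 words in 2.57% and 0.874%, and HNF4 words in 2.05% and 0.383%, the largest ratio at 5.34. The NFI core TTGGCA was found in 27.1% and 13.8%, and the nuclear receptor hexamer AGGTCA in 30.5% and 16.9%. Each of these 7 excesses had the same sign on 19 of 19 autosomes. The words were raised in regions of all 3 nucleases over their own flanks too, with ratios of 1.99 for FOXA (2.13 in members), 1.91 for the FOXA variant (1.81), 1.84 for C/EBP (1.95), 3.11 for HNF1 (2.94), 5.57 for HNF4 (5.34), 2.05 for the NFI core (1.96) and 1.87 for the nuclear receptor hexamer (1.81). For Onecut the ratio was 2.09 (3.21 in members). The NFI core and the nuclear receptor hexamer were less frequent in members than in regions of all 3 nucleases, at 29.5% (difference -2.45 percentage points, -3.54 to -1.35) and 33.6% (-3.09, -4.22 to -1.95). Over all intragenic regions of any nuclease the shares were 7.67% for FOXA, 9.71% for the FOXA variant, 19% for C/EBP, 1.94% for HNF1, 1.75% for HNF4, 26.5% for the NFI core and 30.4% for the nuclear receptor hexamer. Backwards, the FOXA letters stood in 8.17% of members and 7.50% of flank windows, the HNF4 letters in 0.344% and 0.271%, and the HNF1 letters in 1.14% and 0.925%.

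The POU, SP/KLF and NRF1 words were level with the flanks. The POU word ATGCAAAT was found in 2.05% of members and 1.95% of flank windows, the GC-rich SP/KLF word GGGCGG in 2.76% and 2.83%, and the NRF1 word GCGCATGC in 0.368% and 0.365%. Over all intragenic regions these shares were 1.45%, 7.76% and 0.510%. SP/KLF words were in 8.33% of regions of all 3 nucleases and 14.4% of Benzonase-Cyanase regions. CTCF words were found in 2.95% of members and 2.23% of flank windows, a difference of 0.719 percentage points (0.367 to 1.09). Runs of 10 A were found in 8.38% of members and 7.35% of flank windows, a difference of 1.04 percentage points (0.441 to 1.65) on 16 of 19 autosomes. They were found in 3.90% of regions of all 3 nucleases and 0.843% of Benzonase-Cyanase regions. Over all intragenic regions CTCF words stood in 3.74% and runs of A in 4.70%.

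**Figure D3:**
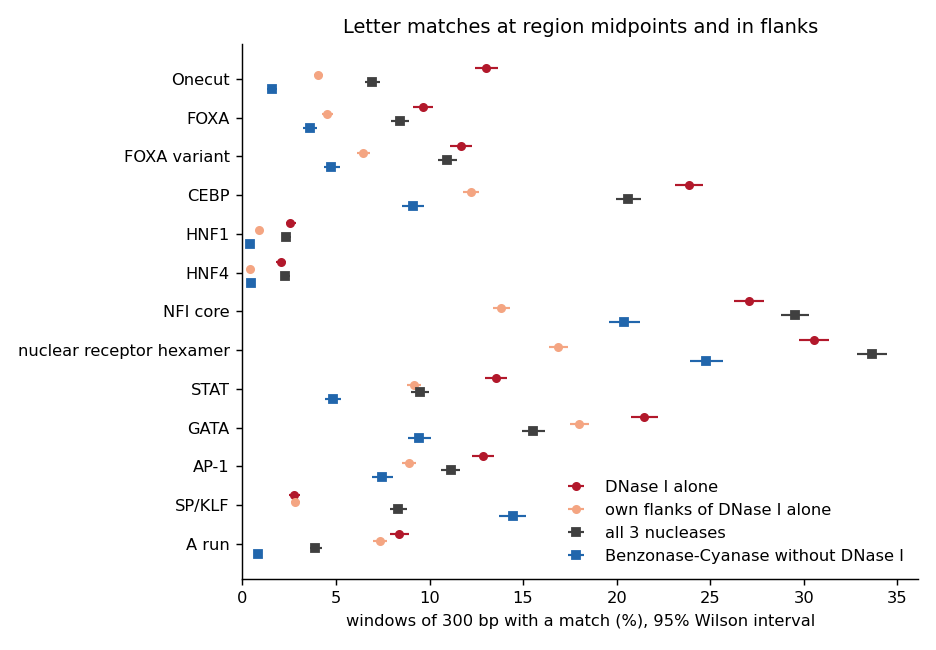
Share of 300 bp windows with a letter match, in percent with 95% Wilson intervals, at the midpoints of members (DNase I alone), in the members' own flanks, and at the midpoints of regions of all 3 nucleases and of Benzonase-Cyanase regions. Onecut matches were found in 13.04% of members and 4.06% of their flanks, whereas SP/KLF matches were level at 2.76% and 2.83%.

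The matches gathered at the middle of the members. Within 50 bp of the midpoint, 1.93% of members held an Onecut match per 25 bp, against 0.363% at 350 to 500 bp, a ratio of 5.32. In regions of all 3 nucleases the ratio was 2.50 and in Benzonase-Cyanase regions 0.489. The ratios in members were 2.80 for FOXA, 2.82 for C/EBP, 4.06 for HNF1 and 7.57 for HNF4, beside 1.01 for the POU word and 0.962 for runs of A. Regions of all 3 nucleases shared this gathering, with 2.22 for FOXA, 2.32 for C/EBP, 3.40 for HNF1 and 7.46 for HNF4. Their ratios were 0.852 for the POU word and 0.455 for runs of A. Regions of all 3 nucleases were wider, with a median of 807 bp, and the part of width in the difference between the classes was not tested.

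**Figure D4:**
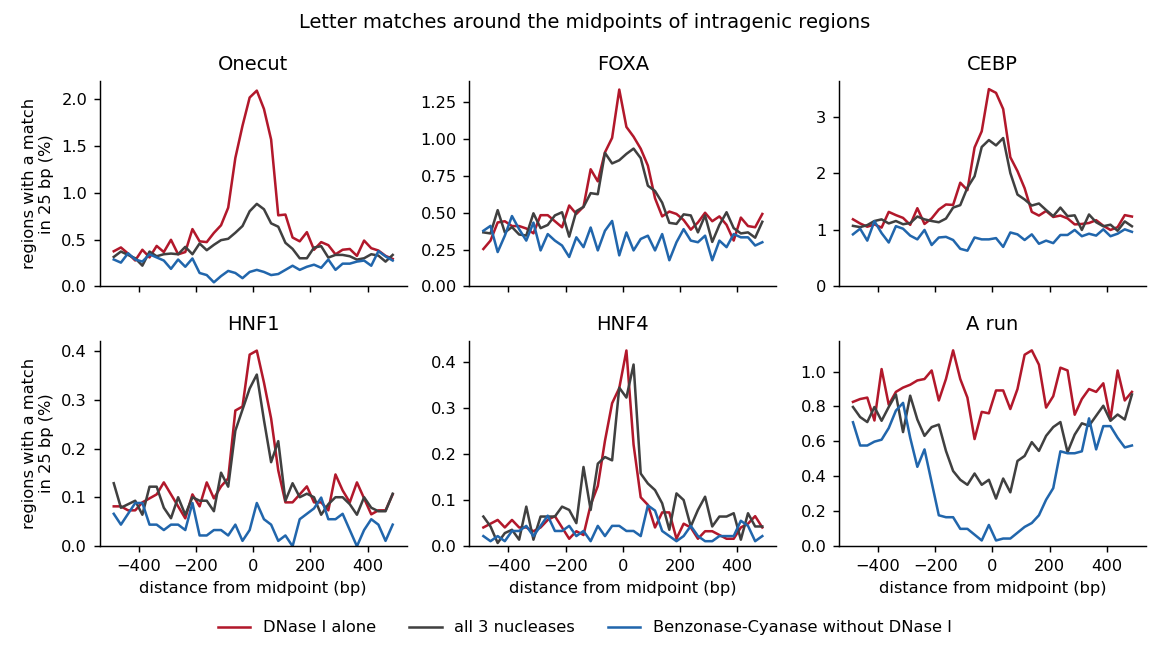
Share of regions with a letter match whose centre fell in each 25 bp bin, in percent, against the distance in bp from the region's midpoint, for members (DNase I alone), regions of all 3 nucleases and Benzonase-Cyanase regions. Onecut, FOXA, C/EBP, HNF1 and HNF4 matches peaked at the midpoint of members, with an Onecut ratio of centre to edge of 5.32, and runs of A did not, with 0.962.

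Set against regions of all 3 nucleases, the differences in FOXA, C/EBP and HNF1 words changed with the GC content of the window. The FOXA word was more frequent in members over all windows, by 1.22 percentage points (0.526 to 1.92) on 13 of 19 autosomes. The difference was 0.648 (-0.0373 to 1.33) when hotspots were joined only at an overlap of 50% of both, and 0.730 (-0.0384 to 1.501) for the variant letters, with intervals that include 0. In windows of like GC content the difference ran from -2.54 (38 to 42% GC) to 2.27 (under 38%), and it was negative in 3 of 5 classes. The C/EBP excess of 3.25 percentage points (2.25 to 4.27) likewise turned to -3.20 (-5.48 to -0.931) at 42 to 46% GC and -3.84 (-5.94 to -1.70) at 46 to 50%. HNF1 words, with a pooled difference of 0.235 percentage points (-0.140 to 0.615), were less frequent in members in each of the 5 classes, for instance in 2.72% against 6.32% of windows of 38 to 42% GC (difference -3.60, -5.23 to -2.19), the largest of the 5 differences. At 46 to 50% GC (-0.659, -1.28 to 0.00507) and at 50% or more (-0.439, -0.830 to 0.173) the intervals include 0.

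The Onecut excess over regions of all 3 nucleases, 6.10 percentage points (5.37 to 6.83) on 19 of 19 autosomes, was found in the most AT-rich windows. Under 38% GC, 23.4% of 2294 members and 13.3% of 444 regions of all 3 nucleases held the word, a difference of 10.1 percentage points (6.22 to 13.4). In the other 4 classes the differences were between 0.144 and 0.357 percentage points, with intervals that include 0. STAT words (TTCNNNGAA) behaved otherwise. They were found in 13.5% of members, 9.49% of regions of all 3 nucleases and 9.15% of flank windows, and in 9.77% of all intragenic regions. Their excess over regions of all 3 nucleases was 1.52 percentage points (-2.13 to 4.64) under 38% GC and 1.01 (-1.36 to 3.24) at 38 to 42%, with intervals that include 0. It was 1.94 percentage points (0.191 to 3.66) at 42 to 46% GC, 3.24 (1.58 to 4.96) at 46 to 50% and 4.44 (2.64 to 6.42) at 50% or more. GATA words (AGATAA) were found in 21.5% of members, 17.99% of flank windows and 15.6% of regions of all 3 nucleases. Their excess over regions of all 3 nucleases was 6.74 percentage points (2.20 to 10.9) under 38% GC and between -0.647 and 0.842 in the other 4 classes, with intervals that include 0. AP-1 words (TGANTCA) were found in 12.9%, 8.90% and 11.1%, and were not compared by GC class. In all intragenic regions their shares were 16.2% and 10.8%. A letter match describes sequence and does not show that a factor was bound.

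**Figure D5:**
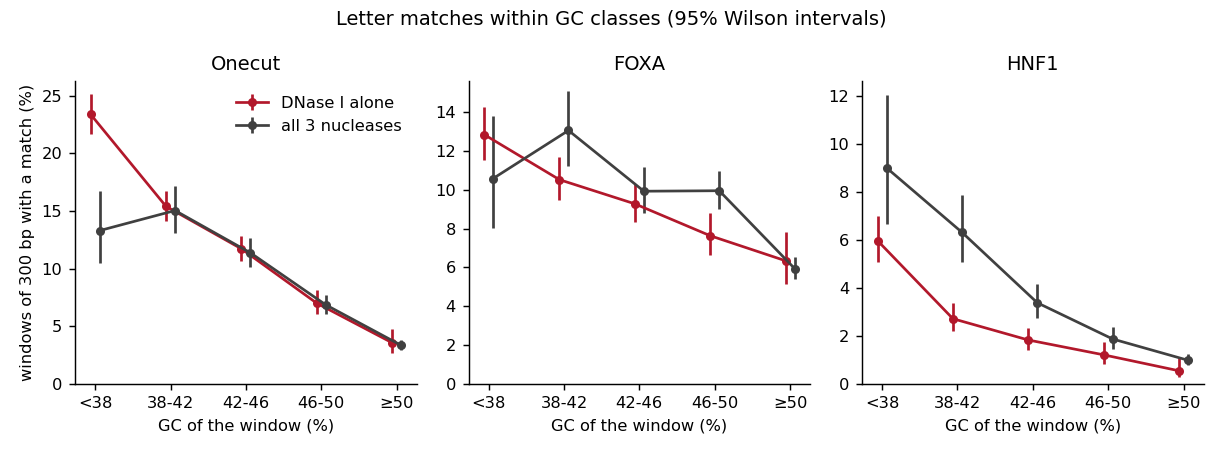
Share of 300 bp windows with an Onecut, FOXA or HNF1 letter match, in percent with 95% Wilson intervals, within 5 classes of the window's GC content, for members (DNase I alone) and regions of all 3 nucleases. For Onecut the classes parted only under 38% GC, at 23.4% and 13.3%, and for HNF1 members lay lower in each class.

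The words also varied among the members themselves. Onecut matches rose with width, from 10.3% of the narrowest quartile (9.28 to 11.4%) to 16.0% of the widest (14.8 to 17.4%), while GC content fell. HNF1 matches went from 1.83% to 3.51% across the same quartiles. Members with no Benzonase or Cyanase region within 5 kb held an Onecut match in 14.7% (13.8 to 15.5%) and those with one in 11.01% (10.2 to 11.9%). Members in genes without a TSS hotspot held C/EBP words in 28.5% (26.3 to 30.7%) and those in open genes in 23.2% (22.4 to 24.0%).

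Members resembled the 12203 regions of DNase I alone that lay outside genes. The median width of the latter was 547 bp and their mean GC content 42.2%, 0.472 percentage points below the members (SD 0.598 over 19 autosomes, members higher on 17). FOXA words were found in 9.79% of them, a difference of -0.157 percentage points (-0.900 to 0.586), HNF4 words in 2.11% (-0.0692, -0.429 to 0.290) and HNF1 words in 2.70% (-0.128, -0.530 to 0.275), with intervals that include 0. C/EBP words were slightly less frequent in members, by -2.22 percentage points (-3.31 to -1.14), as were Onecut words, by -1.33 (-2.20 to -0.472), both on 13 of 19 autosomes. Members had a region of all 3 nucleases within 5 kb more often, by 9.10 percentage points (7.95 to 10.3) on 19 of 19 autosomes. The 977 regions of DNase I alone within 1 kb of a TSS held Onecut words in 8.60%, 4.44 percentage points (2.43 to 6.15) below the members.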

How the data were processed

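Open chromatin was measured in mouse liver by partial digestion with DNase I, Benzonase or Cyanase and sequencing. Per the methods and file headers, the authors used Eland or Bowtie against mm9, joined the tags of a nuclease into 1 set, adjusted for input and kept hotspots whose false discovery rate was 0%. The 3 deposited lists give positions on chromosomes without tag numbers, so the depth behind a hotspot is unknown.

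Hotspots on 19 autosomes were merged at an overlap of 1 bp and placed on GENCODE M1 (NCBIM37, the sequence of mm9). A host gene is any protein-coding gene whose transcript body a member overlaps. GC content was taken over called bases and the sequence was not masked for repeats. Letter matches to 22 motifs were counted in windows of 300 bp on both strands, and flank windows that touched a region were left out. Shares carry 95% Wilson intervals and their differences Newcombe intervals (statsmodels 0.14.6). No test between conditions was possible, because each list is pooled. Python 3.11.15, pandas 2.3.3 and pysam 0.24.0 were used, and merging, matching and intervals were tested on simulated data.

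The members, gene lists and motifs were chosen with earlier results of these data known. Genes were named as the 10 with most members, the 10 densest with 5 or more, up to 4 of each list, the hosts of the 5 widest members, and Tat, and 2 genes that this rule names are not reported here. Alternatives were other overlaps, joins, TSS distances, windows and lists. Chromosomes X and Y were not analysed here.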

Additional observations from a re-analysis of the deposited data

How the results depend on the processing

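Of 105 alternatives to 10 results, 79 kept the result near its main value, 23 moved it and 3 turned its direction. Of all alternatives, 3 were chosen after seeing the data. Near meant within the main interval for shares and within the SD over autosomes for GC content. Counts carry no error, and a fixed fold range was used for them. A turned direction was scored only where the main interval left out 0, which that for first introns did not. The number of members ranged from 8402 to 13931 and that of host genes from 4289 to 5833. The difference in first introns stayed between -1.16 and 0.0319 percentage points. The cause of the shifts that follow was not tested. When hotspots were joined only at an overlap of 50% of both, the exon difference from regions of all 3 nucleases was -5.39 percentage points, the difference in another region within 5 kb -11.1, GC content minus flanks -0.406 and GC content minus regions of all 3 nucleases -4.26. With Cyanase as the only list set against DNase I, these were -6.41, -13.85, -0.443 and -4.44. With Benzonase alone, the difference in another region within 5 kb was -13.83. After dropping hotspots narrower than the lower quartile of each list, the exon difference was -5.99, the difference in open host genes -2.05 and that in another region within 5 kb -13.86. At 1 kb from every annotated TSS the exon difference was -6.14, and for midpoints it was -1.75. A distance of 1 kb or 20 kb in place of 5 kb gave -11.6 and -6.71. Over the central 150 bp, GC content was -0.248 against flanks and -6.42 against regions of all 3 nucleases, and it was -0.343 against the members' own introns. The FOXA difference from regions of all 3 nucleases was 2.27 under 38% GC, -2.54 at 38 to 42%, -0.651 at 42 to 46%, -2.32 at 46 to 50% and 0.400 at 50% or more. The FOXA difference from flanks was 3.66 in windows of 150 bp and 9.39 with either set of FOXA letters. Depth could not be weighed, since the lists carry no tag counts, and a missing Benzonase or Cyanase hotspot does not show that the chromatin was closed to them. No paired analysis was possible because each list pools its samples.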
